A study of Rattus norvegicus with 9 samples.

Results

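Integrins that leukocytes use to attach to vessel walls and to other cells, and their ligands of the ICAM family, were followed by the transcript levels of 9 genes. The genes were the beta chains Itgb7, Itgb1 and Itgb2, the alpha chains Itga4, Itgal, Itga6 and Itgae, and the ligands Icam1 and Icam2, out of 34738 gene units in all. They were picked out by gene name, with earlier results of these data known. A gene's level was the summed TPM (a transcript abundance scaled for transcript length and library depth) of its reference transcripts and of the assembled transcripts of its locus. RNA came from CD4+ T cells of the blood of SD rats of 8 to 10 weeks, with 3 libraries in each of 3 groups. The combination group was CIA rats given a combination of compounds, which the labels do not name, for 4 weeks. The model group was read as CIA rats without that treatment, and the normal group as rats without CIA. CIA was taken to mean collagen-induced arthritis, because the series title names rheumatoid arthritis. How the CD4+ cells were selected, and whether each library was a separate animal, is not described, so each p-value reflects variation among libraries, which may be technical.

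An integrin is a pair of an alpha and a beta chain in the cell membrane, and its pairing sets its ligand. Itga4 pairs with Itgb7 in the gut homing receptor that binds MAdCAM-1, and with Itgb1 in VLA-4, which binds VCAM-1 and fibronectin. Itgal and Itgb2 form LFA-1, which binds ICAM-1 and ICAM-2 and holds a T cell to vessel wall and antigen presenting cell, Itgae pairs with Itgb7 to bind E-cadherin, and Itga6 pairs with Itgb1 to bind laminin. Icam1 is induced in many cell types by inflammatory signals through NF-kB and STAT factors, whereas ICAM-2 is better known as a constitutive ligand of leukocytes and endothelium.

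The promoters of Icam1 and Itgb7 are shown because these were the members that passed the test below. They run from 250 bases before to 50 bases after the RefSeq start of the gene, on build GRCr8, at chr8:27829595-27829894 on the plus strand for Icam1 and chr7:135239022-135239321 on the minus strand for Itgb7. Capitals mark matches to the motifs described next.
Icam1 promoter: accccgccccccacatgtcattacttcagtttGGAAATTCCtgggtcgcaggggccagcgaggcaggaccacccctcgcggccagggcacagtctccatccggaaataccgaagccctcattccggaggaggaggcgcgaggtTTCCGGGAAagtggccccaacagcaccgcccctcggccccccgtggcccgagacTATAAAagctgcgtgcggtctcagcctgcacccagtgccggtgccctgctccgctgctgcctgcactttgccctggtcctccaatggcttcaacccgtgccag
Itgb7 promoter: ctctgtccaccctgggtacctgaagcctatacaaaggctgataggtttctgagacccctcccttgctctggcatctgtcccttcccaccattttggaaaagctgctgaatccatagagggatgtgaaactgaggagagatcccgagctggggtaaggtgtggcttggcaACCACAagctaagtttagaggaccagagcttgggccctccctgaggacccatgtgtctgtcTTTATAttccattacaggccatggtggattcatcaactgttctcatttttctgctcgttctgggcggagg
A set of 5 short motifs was searched on both strands, with letters chosen after these sequences had been seen. They were GGAAATTCC, the NF-kB site known from ICAM1, and a narrow form of the NF-kB consensus. That form fixes T at positions where the general consensus also allows C. The others were TTCNNNGAA, the STAT site, TGTGGT, a RUNX site, and TATAAA, the TATA box. The Icam1 promoter held GGAAATTCC with its first base at -218 from the start, which 0.332% of 33469 rat promoters of the same length held. It also held TTCNNNGAA at -107 (8.87% of promoters) and TATAAA at -53 (14.2% of promoters). The Itgb7 promoter held TGTGGT on the reverse strand at -81 (17.3% of promoters) and TATAAA on the reverse strand at -20. The narrow form of the NF-kB consensus, in 1.53% of promoters, was in neither, and the general consensus was not searched. Promoters were matched for 5 of the 9 genes, and a match is a run of letters, not evidence of binding. Among the 3 others matched, Itga4 held TGTGGT on the reverse strand at -59 and Itgae held it on the forward strand at -81.

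Each library had 7.52 to 10.1 gigabases of aligned sequence. In a principal component analysis, whose first component took 26.0% of the variance, model replicate 2 stood at -0.14, while model replicates 1 and 3 stood at 39.7 and 60.1. The combination libraries stood between -3.50 and 6.93 and the normal libraries between -41.0 and -30.6. On the second component, with 22.1% of the variance, model replicate 2 stood at 27.5 and model replicates 1 and 3 at 12.4 and 28.1. There the combination libraries stood apart, between -45.2 and -35.3, and the normal libraries between 11.9 and 23.1. Because of the place of model replicate 2 on the first component, members whose call changed without it (Itgb7, Itgb2 and Icam2) are given both ways. All 6 CD4 T cell markers found (Cd3e, Cd3d, Cd3g, Cd4, Cd6 and Lck) were at 72.6 TPM or more in every library. They summed to between 1671 and 2112 TPM in combination, 1379 and 1919 TPM in model and 1910 and 2615 TPM in normal libraries, a sum in which Cd3g alone ran from 190 to 879 TPM.

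Icam1 was high in both groups of arthritic rats and low in normal rats. It averaged 54.3 ± 20.7 TPM in combination, 37.7 ± 9.29 TPM in model and 10.8 ± 4.17 TPM in normal libraries (SD, n = 3 each). Itgb7 lay at the other end, with a mean of 13.1 ± 1.97 TPM in combination, 26.8 ± 16.8 TPM in model and 47.0 ± 4.57 TPM in normal libraries (SD, n = 3 each). Itgae lay between 6.86 and 11.9 TPM in all 9 libraries.

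**Figure D1:**
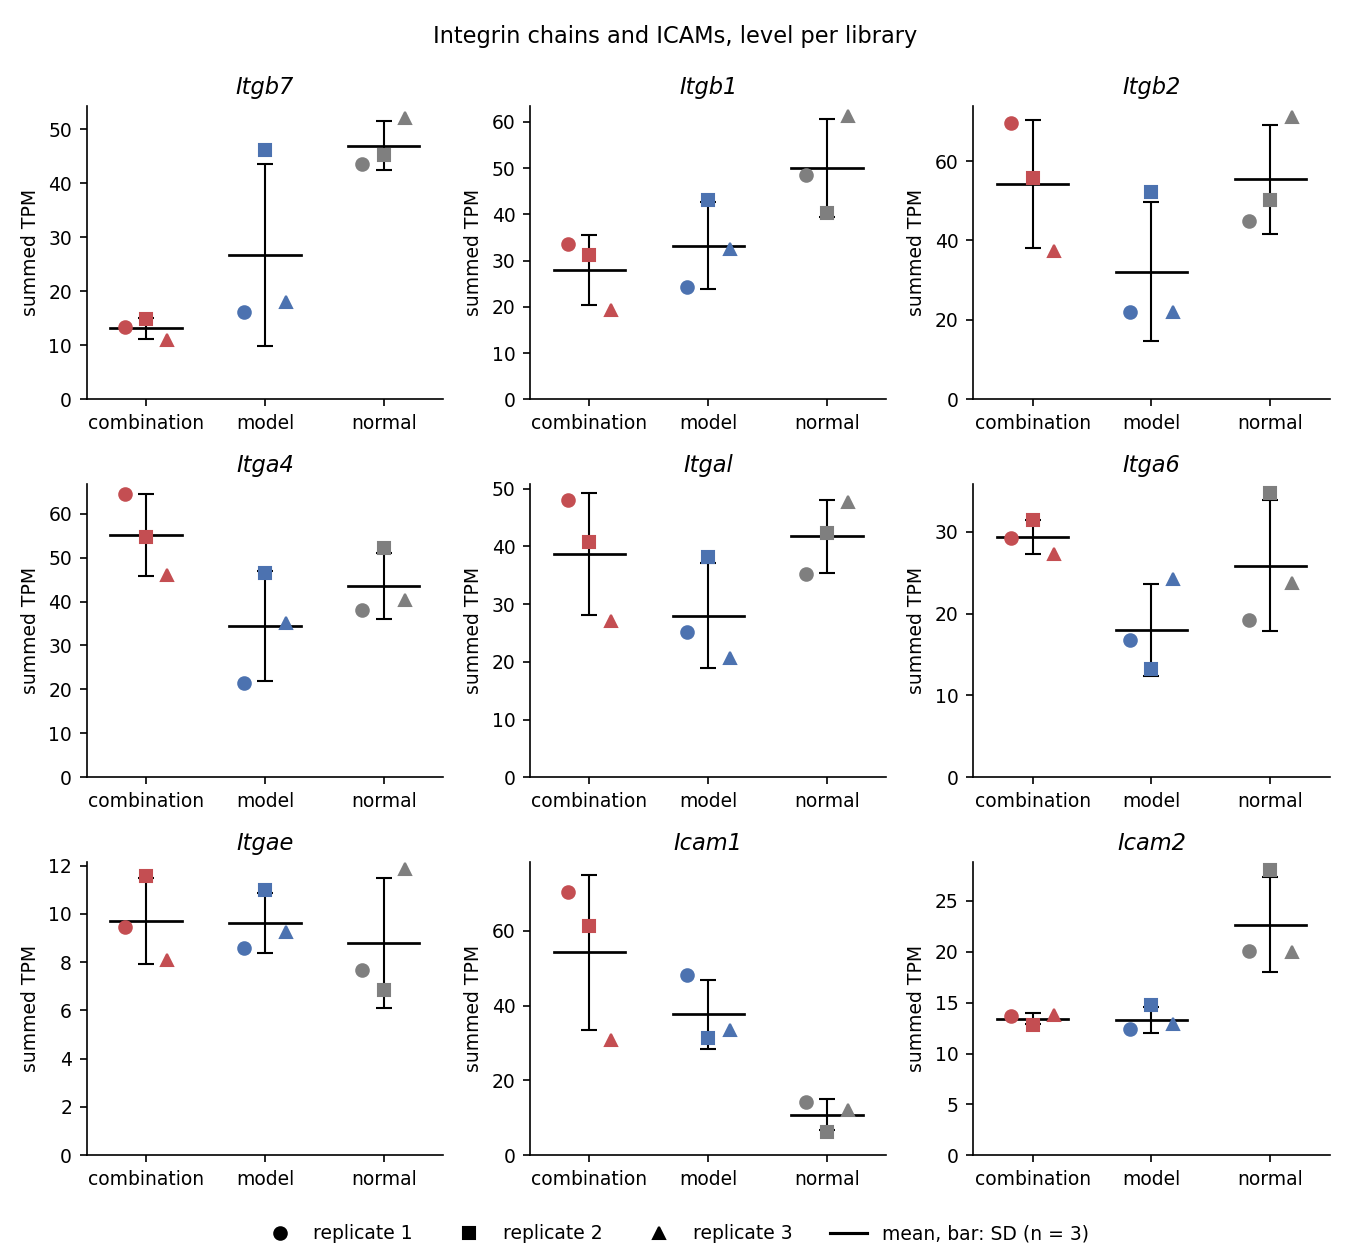
Summed TPM (y axis, linear from 0) of the 9 genes in each combination, model and normal library, with group means and SD bars. Icam1 lay between 31.0 and 70.5 TPM in combination libraries, between 31.3 and 48.3 TPM in model libraries and between 6.15 and 14.2 TPM in normal libraries, and Itgb7 of model replicate 2 lay among the normal values.

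Among the beta chains, Itgb7, the partner of Itga4 and Itgae, was at 13.4, 14.9 and 10.99 TPM in combination libraries. It was at 16.1, 46.2 and 18.0 TPM in model libraries and at 43.5, 45.2 and 52.1 TPM in normal libraries. All combination libraries lay below all model and all normal libraries, while model replicate 2 lay within the normal values. Itgb7 was lower in combination than in normal libraries (log2 fold change -1.77 ± 0.34 SE on log2(TPM + 1), limma adjusted p = 0.0370). It did not pass between combination and model (-0.83, adjusted p = 0.167) or between model and normal (-0.94, adjusted p = 0.126). Without model replicate 2, the model libraries were lower than normal (-1.41, adjusted p = 0.00441), and the fall in combination kept its call (adjusted p = 0.00249). Model against normal did not pass when any other library was left out (limma adjusted p up to 0.328). The fall in combination against normal missed the threshold when any combination or any normal library was left out, with adjusted p of 0.0584 to 0.122, and also without a filter on low genes (0.0632) or with reference transcripts alone (0.0676). In bulk RNA of this kind, fewer cells that express a gene and less RNA per cell cannot be told apart. Some T cell markers moved with Itgb7. Cd4 was at 98.1 to 142 TPM in combination, 76.5 to 186 TPM in model and 202 to 235 TPM in normal libraries, and Lck was at 280 to 356 TPM in combination, 281 to 534 TPM in model and 467 to 497 TPM in normal libraries. Cd6 was at 73.6 to 97.4 TPM in combination, 72.6 to 145 TPM in model and 130 to 138 TPM in normal libraries. All 3 were lower in every combination than in every normal library, and highest among model libraries in replicate 2, as was Itgb7. Cd3e followed them, at 323 to 416 TPM in combination, 228 to 405 TPM in model and 427 to 434 TPM in normal libraries. Cd3d overlapped between combination and normal libraries, at 437 to 473 TPM and 438 to 446 TPM. Cd3g overlapped too, at 190 to 756 TPM and 245 to 879 TPM, and was lowest among model libraries in replicate 2. The part of these markers in the result was not tested.

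Itgb1, the common beta chain of the VLA integrins, was at 33.5, 31.2 and 19.4 TPM in combination libraries. It was at 24.2, 43.1 and 32.4 TPM in model libraries and at 48.4, 40.4 and 61.3 TPM in normal libraries. All combination libraries lay below all normal libraries, and the model libraries overlapped both groups. The difference of combination from normal did not pass (-0.83, adjusted p = 0.107), nor did that of model from normal (-0.59, adjusted p = 0.203) or of combination from model (-0.24, adjusted p = 0.624).

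Itgb2, the beta chain of LFA-1 and of the myeloid integrins, was at 69.7, 55.7 and 37.4 TPM in combination libraries. It was at 21.9, 52.3 and 22.1 TPM in model libraries and at 44.9, 50.2 and 71.0 TPM in normal libraries. Model replicates 1 and 3 lay below every other library, and model replicate 2 lay within both other groups. No comparison of Itgb2 passed with all libraries, with -0.86 (adjusted p = 0.167) for model against normal and 0.82 (adjusted p = 0.190) for combination against model. Without model replicate 2 both passed, at -1.27 (adjusted p = 0.0211) and at 1.22 (adjusted p = 0.0400). Neither passed when any other library was left out, with limma adjusted p up to 0.404 and 0.414. Combination and normal differed by -0.05 (adjusted p = 0.952).

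Of the alpha chains, Itga4, shared by VLA-4 and the gut homing receptor, was at 64.6, 54.8 and 46.0 TPM in combination libraries. It was at 21.5, 46.5 and 35.2 TPM in model libraries and at 38.1, 52.1 and 40.4 TPM in normal libraries. Combination replicate 3 fell just under model replicate 2, so these groups overlapped by that pair of libraries. Itga4 did not pass for combination against model (0.72, adjusted p = 0.138), for model against normal (-0.38, adjusted p = 0.386) or for combination against normal (0.33, adjusted p = 0.474).

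Itgal, the alpha chain of LFA-1, was at 48.0, 40.8 and 27.1 TPM in combination libraries. It was at 25.3, 38.2 and 20.6 TPM in model libraries and at 35.2, 42.4 and 47.8 TPM in normal libraries. All 3 groups overlapped. The differences were 0.46 for combination against model (adjusted p = 0.317), -0.59 for model against normal (adjusted p = 0.198) and -0.14 for combination against normal (adjusted p = 0.794).

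Itga6, a chain of laminin receptors, was at 29.3, 31.5 and 27.3 TPM in combination libraries. It was at 16.7, 13.2 and 24.2 TPM in model libraries and at 19.2, 34.7 and 23.7 TPM in normal libraries. Every combination library lay above every model library, and normal libraries overlapped both. The test did not call combination against model (0.71, adjusted p = 0.126), model against normal (-0.50, adjusted p = 0.248) or combination against normal (0.21, adjusted p = 0.640).

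Itgae, the alpha chain known as CD103 of T cells that reside in epithelium, was the lowest member. It was at 9.44, 11.6 and 8.08 TPM in combination libraries, at 8.58, 10.998 and 9.25 TPM in model libraries and at 7.66, 6.86 and 11.9 TPM in normal libraries. The groups overlapped in every comparison. Its differences were 0.01 for combination against model, 0.14 for model against normal and 0.15 for combination against normal, with adjusted p of 0.992, 0.717 and 0.713.

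Of the ligands, Icam1 was at 70.5, 61.3 and 31.0 TPM in combination libraries. It was at 48.3, 31.3 and 33.5 TPM in model libraries and at 14.2, 6.15 and 12.2 TPM in normal libraries. All 6 libraries of arthritic rats lay above all 3 normal libraries, and combination and model libraries overlapped. Icam1 was higher in model than in normal libraries (log2 fold change 1.75 ± 0.37 SE, limma adjusted p = 0.0377) and higher in combination than in normal libraries (2.21 ± 0.37 SE, adjusted p = 0.0292). Combination and model differed by 0.46 ± 0.37 SE (adjusted p = 0.468). Both calls are close to the threshold. Model against normal missed it without any normal library, without model replicate 1 or 3 or without combination replicate 2 (adjusted p 0.0642 to 0.125), and also without a filter on low genes (0.0876), with reference transcripts alone (0.0501) or with the combination libraries left out of the fit (0.0636). Combination against normal missed it without any normal library or without combination replicate 1 or 2 (0.0546 to 0.0983), and without a filter (0.0513). The direction was the same in each of these.

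Icam2 was at 13.7, 12.8 and 13.8 TPM in combination libraries. It was at 12.4, 14.8 and 12.9 TPM in model libraries and at 20.05, 28.0 and 19.9 TPM in normal libraries. Every library of the arthritic rats lay below every normal library. The differences from normal just missed the threshold, at -0.71 ± 0.17 SE for model (adjusted p = 0.0517) and -0.70 ± 0.17 SE for combination (adjusted p = 0.0551). Without model replicate 2 both passed (adjusted p = 0.0233 and 0.0352). Combination and model differed by 0.01 ± 0.17 SE (adjusted p = 0.973).

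**Figure D2:**
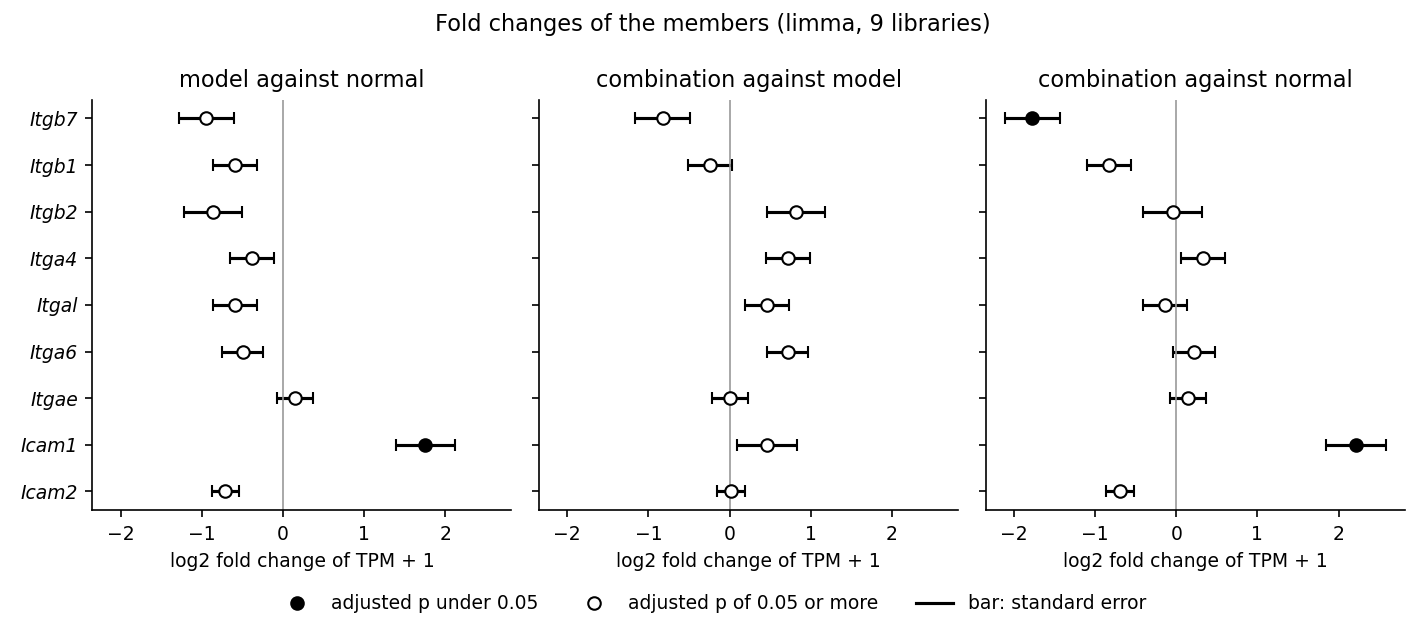
Log2 fold change of TPM + 1 (x axis) with its standard error for the 9 genes in the 3 comparisons, where filled points have an adjusted p under 0.05. Icam1 was filled in both comparisons with normal libraries and Itgb7 for combination against normal, and no gene was filled for combination against model.

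Counted over the members, model against normal had 1 of 9 past the threshold, Icam1, while 4.01% of the 14252 gene units tested passed. An unadjusted p under 0.05 was found for 4 members and for 26.4% of all gene units, and the median log2 fold change of the members was -0.59, beside -0.01 for all gene units. The fold change was positive for 2 of the 9, beside 49.5% of all gene units. Groups did not overlap for Icam1 (higher) and Icam2 (lower), beside 32.7% of all gene units in either direction. Without model replicate 2 the count was 4 of 9, with Icam1 higher and Itgb7, Itgb2 and Icam2 lower, but 18.7% of all gene units then passed.

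For combination against model, 0 of 9 members passed in limma, beside 4.15% of gene units, and 4 members (Itgb7, Itgb2, Itga4 and Itga6) had an unadjusted p under 0.05, beside 26.0% of gene units. The members' median was 0.46, beside 0.03 for all gene units, and the fold change was positive for 7 of the 9, beside 52.6% of all gene units. Groups did not overlap for Itga6 (higher) and Itgb7 (lower), beside 26.7% of gene units. Without model replicate 2, 1 of 9 passed, Itgb2, beside 8.39% of gene units.

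For combination against normal, 2 of 9 passed, Icam1 higher and Itgb7 lower, beside 3.62% of gene units. The members' median was -0.05, beside 0.04 for all gene units. Groups did not overlap for Icam1 (higher) or for Itgb7, Itgb1 and Icam2 (lower), beside 35.5% of gene units. Leaving out model replicate 2 gave 3 of 9, with Icam2 as the third, beside 10.4% of gene units. The 3 comparisons share their libraries in pairs, so their values are not independent of each other. Because the members were chosen with earlier results of these data known, the counts and medians are descriptions.

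TPM is per length, so members can be ordered within a group. In normal libraries the order of the means was Itgb2 (55.4 TPM), Itgb1, Itgb7, Itga4 and Itgal (41.8 TPM), then Itga6 (25.9 TPM), Icam2, Icam1 (10.8 TPM) and Itgae (8.79 TPM). Neighbours overlapped in range except Itgal with Itga6 and Icam2 with Icam1. In combination libraries Itga4 (55.1 TPM), Icam1 and Itgb2 led with overlapping ranges, followed by Itgal, Itga6 and Itgb1, and all of these lay above Icam2, Itgb7 and Itgae. In model libraries the means ran from Icam1 (37.7 TPM) over Itga4, Itgb1, Itgb2, Itgal, Itgb7 and Itga6 to Icam2 (13.3 TPM), each overlapping its neighbour, with Itgae (9.61 TPM) below. By its mean, Icam1 was eighth of 9 in normal, first in model and second in combination libraries.

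Ratios between members of the same library were compared by exact two-sided permutation tests, in which 3 against 3 libraries cannot reach a p under 0.1. The log2 ratio of Itgb7 to Itgb1, the beta chains that share Itga4, was -1.26, -1.02 and -0.77 in combination libraries, against -0.15, 0.16 and -0.23 in normal libraries. These did not overlap, with a difference of -0.94 (exact p = 0.1, adjusted over the 9 ratio tests p = 0.3). Model libraries, at -0.56, 0.10 and -0.82, overlapped both.

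Icam1 to Icam2 was 2.29, 2.17 and 1.11 on the log2 scale in combination libraries, 1.88, 1.03 and 1.31 in model libraries and -0.47, -2.02 and -0.67 in normal libraries. Icam1 thus exceeded Icam2 in all 6 libraries of arthritic rats and was below it in all 3 normal libraries. The differences were 2.47 for model against normal and 2.91 for combination against normal (each exact p = 0.1, adjusted p = 0.3), and 0.45 for combination against model (exact p = 0.3). Itgal to Itgb2, the chains of LFA-1, averaged -0.47 ± 0.05 in combination, -0.11 ± 0.32 in model and -0.38 ± 0.17 in normal libraries (SD, n = 3 each), and its groups overlapped in every comparison. Across the 9 libraries Itgal and Itgb2 had a Pearson correlation of 0.960 on log2(TPM + 1), Itgb7 and Itgb1 of 0.879 and Icam1 and Icam2 of -0.936, as a description of points that fall in 3 groups.

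**Figure D3:**
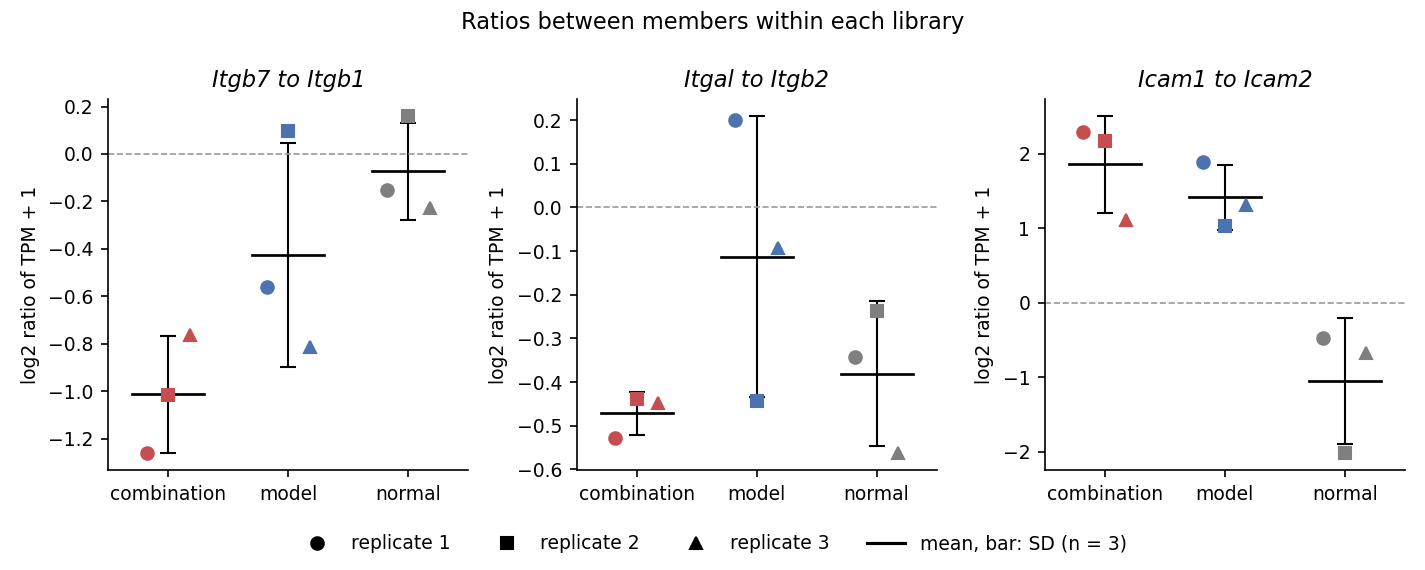
Log2 ratio of TPM + 1 (y axis) of Itgb7 to Itgb1, Itgal to Itgb2 and Icam1 to Icam2 in each combination, model and normal library, with group means and SD bars. A value above 0 means more of the first gene, and Icam1 to Icam2 was above 0 in all combination and model libraries and below 0 in all normal libraries.

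The differences of Icam1 and Itgb7 ran along the whole gene. The coverage of each exon of the reference transcript was set on the TPM scale of its library. Icam1 lies at chr8:22035256-22047059 on the plus strand of rn6. Each of its 7 exons was higher in all model than in all normal libraries, by 3.32 to 4.40 times in the means, and higher in all combination than in all normal libraries, by 4.31 to 5.87 times. Itgb7 lies at chr7:143820900-143837780 on the minus strand. Each of its 15 exons was lower in all combination than in all normal libraries, at 0.230 to 0.330 of the normal mean, and 10 of the 15 were lower in all combination than in all model libraries. Exons of a transcript come from the same libraries and are not replicates.

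**Figure D4:**
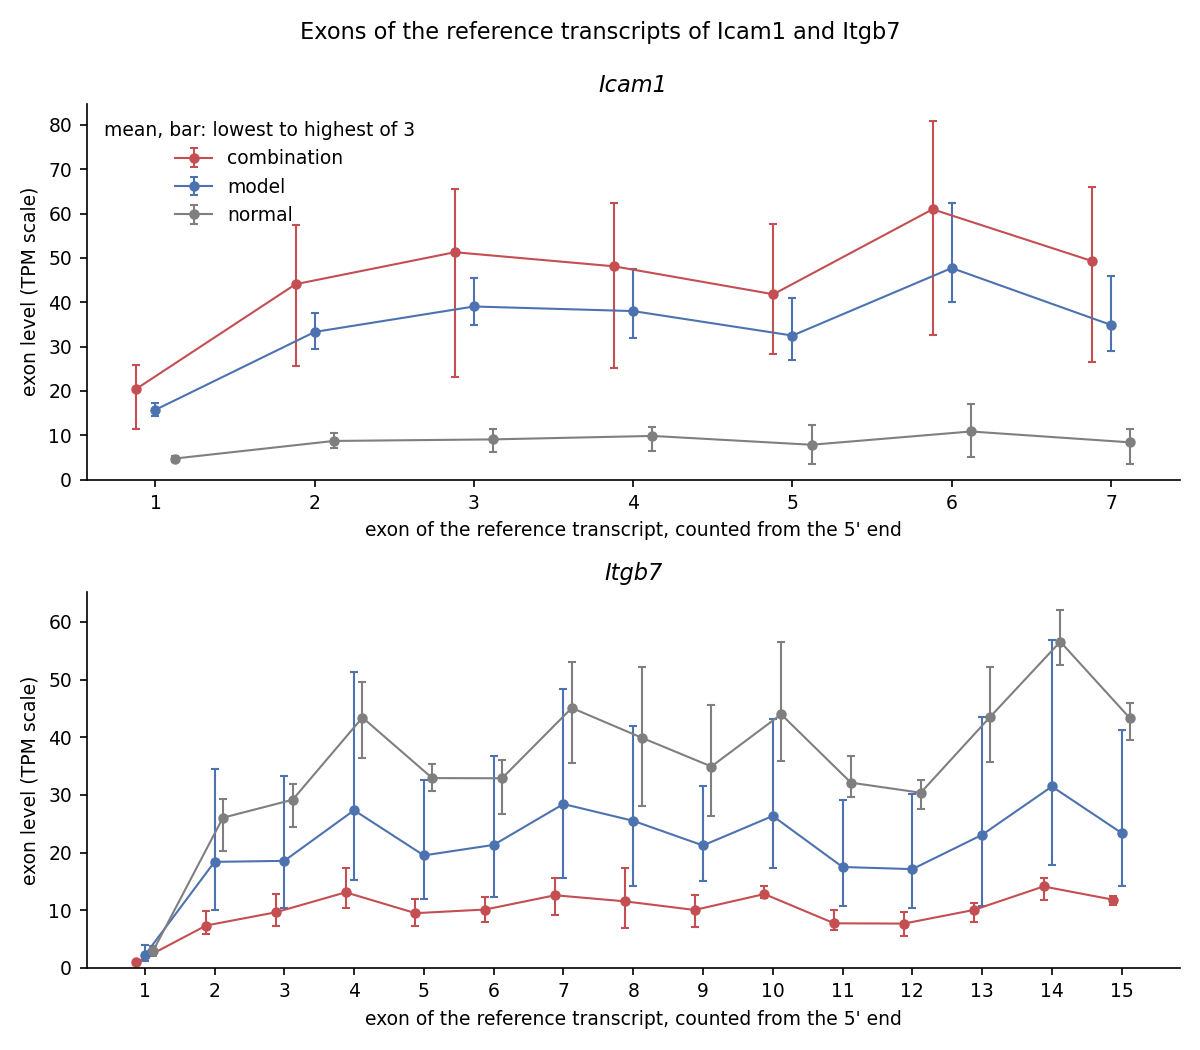
Exon coverage on the TPM scale (y axis, linear from 0) along the reference transcripts of Icam1 and Itgb7, with exons counted from the 5′ end, as means with bars from the lowest to the highest library of the combination, model and normal groups. All 7 exons of Icam1 were higher in combination and model than in normal libraries, and all 15 exons of Itgb7 were lower in combination than in normal libraries.

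For the other chains the exons showed narrower patterns. Itgb1 (chr19:61677542-61725535) had 15 of 16 exons lower in all combination than in all normal libraries. Against model libraries, combination libraries were wholly higher in 22 of 26 exons of Itga6 (chr3:58443101-58515124). The same held for 21 of 28 exons of the reference transcript of Itga4 (chr3:66193059-66263960), but that transcript averaged 0.80 ± 0.10 TPM in combination and 0.31 ± 0.28 TPM in model libraries (SD, n = 3 each), a small part of the gene's level, whose groups overlapped. Itgb2 (chr20:11777783-11815647) had 0 of 16 exons and Itgal (chr1:198744050-198781750) had 0 of 31 exons without overlap in that comparison.

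How much of a gene's level came from the reference transcript differed widely between members. It was 95.7% to 100% for Itgb1, 80.0% to 89.0% for Itgb2, 71.7% to 82.2% for Itgb7 and 64.4% to 82.8% for Itga6 over the 9 libraries. For Itga4 it was 0.14% to 2.83%, since 17 assembled transcripts took the reads, and those above 1 TPM in a library were 5575 to 24125 bases long, beside 3270 bases for the reference. For Itgae (chr10:59539405-59711874) it was 0% to 17.6%, and a single assembled transcript of 8 exons that keeps 2 introns gave 52.5% to 78.7% of its TPM. Its level therefore describes mainly that stretch of the gene.

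Icam2 (chr10:94569890-94576512) also rested on assembled transcripts, as its reference transcript gave 0% to 19.9% of its TPM. Its reference exons overlapped between the groups in all 3 comparisons, and the lower level of arthritic rats lay in some of the assembled forms. An assembled transcript of 1008 bases that lacks 3 reference exons averaged 4.85 ± 1.13 TPM in combination, 4.52 ± 0.26 TPM in model and 9.25 ± 4.25 TPM in normal libraries (SD, n = 3 each). Another, of 4300 bases, averaged 2.56 ± 0.94 TPM in combination, 2.21 ± 1.37 TPM in model and 5.18 ± 0.27 TPM in normal libraries (SD, n = 3 each). Another form, of 6354 bases, went the other way in model libraries, at 1.31 ± 0.41 TPM in combination, 2.10 ± 1.00 TPM in model and 1.51 ± 0.13 TPM in normal libraries (SD, n = 3 each). A form of 1963 bases was above 0 in model replicate 1 alone, at 1.58 TPM. With reference transcripts alone, Icam2 differed by -0.33 for model against normal (adjusted p = 0.692).

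Intron-keeping forms were examined after their values had been seen, and are described without a test. How often such shares separate the groups in other genes was not determined. In Itgal, 3 assembled transcripts keep an intron of 1770 bases near the 5′ end (chr1:198745421-198747190). They made up 46.6%, 45.2% and 48.7% of Itgal TPM in combination libraries, 26.4%, 22.0% and 23.9% in model libraries and 28.4%, 33.4% and 18.4% in normal libraries. Every combination library lay above every other library, while model and normal libraries overlapped. Itgal had 4 intron-keeping transcripts in all. Together these took 45.2% to 48.7% in combination, 22.0% to 28.4% in model and 18.4% to 34.4% in normal libraries.

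The assembled Icam1 transcript keeps the intron of 505 bases between exons 4 and 5 (chr8:22044713-22045217). Its share of Icam1 TPM was 11.6%, 10.3% and 16.2% in combination libraries, 7.34%, 2.66% and 5.85% in model libraries and 17.3%, 23.8% and 21.2% in normal libraries. The 3 groups did not overlap in this share, with model libraries lowest and normal libraries highest. In TPM it was 5.02 to 8.21 in combination, 0.830 to 3.55 in model and 1.47 to 2.58 in normal libraries, so the excess of Icam1 in model libraries was in the spliced reference transcript. The assembled Itgb7 transcript, which lacks an exon of 206 bases (chr7:143821750-143821955), took 17.8% to 28.3% of Itgb7 in combination, 18.0% to 20.5% in model and 19.3% to 24.3% in normal libraries, and these shares overlapped. The Itga6 transcript that lacks an exon of 130 bases (chr3:58510223-58510352), and also keeps an intron of 98 bases, took 5.64% to 11.7% in combination, 9.61% to 19.9% in model and 9.61% to 10.4% in normal libraries, which also overlapped.

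Intron-keeping transcripts of the other members overlapped between groups. Their share of Itga6 was 22.5% to 28.1% in combination, 17.2% to 35.6% in model and 21.1% to 28.1% in normal libraries. For Itgae it was 52.5% to 61.1% in combination, 53.1% to 61.9% in model and 61.1% to 78.7% in normal libraries. For Icam2 it was 14.5% to 32.6% in combination, 15.2% to 20.4% in model and 18.8% to 25.8% in normal libraries. Itgb7, Itgb1, Itgb2 and Itga4 had no such transcript.

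**Figure D5:**
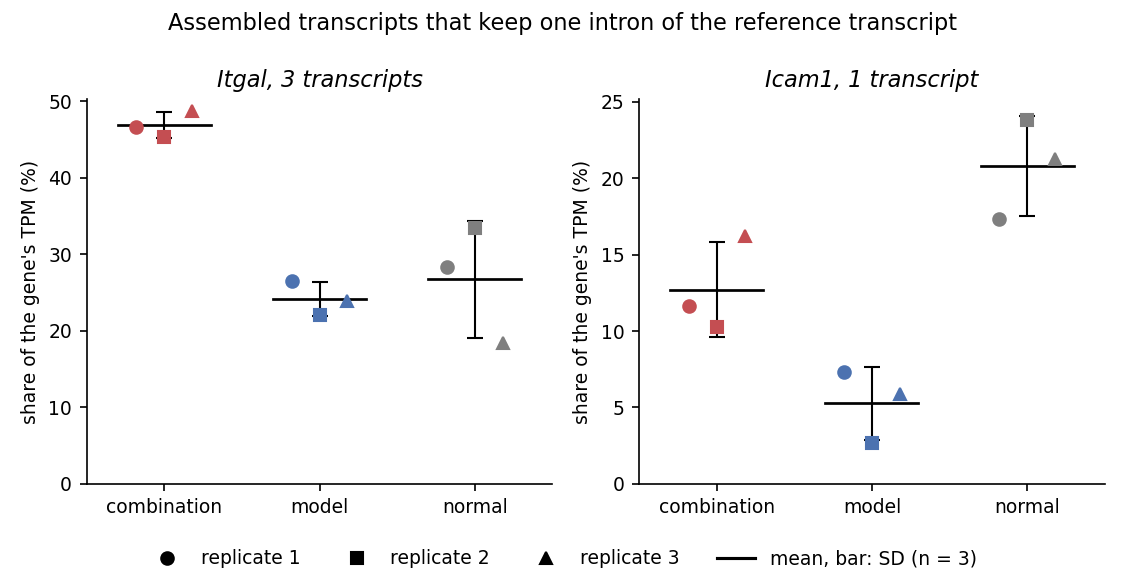
Share of the TPM of Itgal and of Icam1 (y axis, percent, linear from 0) from assembled transcripts that keep an intron, in each combination, model and normal library, with group means and SD bars. For Itgal the share is that of 3 of its 4 such transcripts. Itgal shares of combination libraries lay between 45.2% and 48.7%, above all others, and Icam1 shares were lowest in model libraries, between 2.66% and 7.34%.

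Other genes of adhesion were read from 3 lists. Of 20 other integrin chains 7 were measured well enough to test, and 0 passed in any of the 3 comparisons (limma). An unadjusted p under 0.05 was found for 1 of them in model against normal, 5 in combination against model and 4 in combination against normal, beside 26.4%, 26.0% and 25.5% of all gene units in the same order. Itgb5 was at 125 ± 149 TPM in model and 10.5 ± 4.35 TPM in normal libraries (SD, n = 3 each; log2 fold change 2.79, adjusted p = 0.0597). Itgax, a myeloid partner of Itgb2, was at 3.21 ± 0.94 TPM in combination and 0.562 ± 0.593 TPM in normal libraries (SD, n = 3 each; 1.47, adjusted p = 0.0511). The list's median was 0.30 for model against normal, 0.68 for combination against model and 0.59 for combination against normal.

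Of 21 other ligands and partners 9 were tested, and 1 passed in each comparison. Of all gene units, 4.01% passed for model against normal, 4.15% for combination against model and 3.62% for combination against normal. In the same order, 1, 3 and 4 of the 9 had an unadjusted p under 0.05, beside 26.4%, 26.0% and 25.5% of all gene units. Cd99, a junction protein in transmigration, rose in model against normal libraries (152 ± 25.7 against 72.05 ± 8.97 TPM, SD, n = 3 each; 1.06, adjusted p = 0.0256). Cd48, a ligand of CD2 in rodents, rose in combination against model libraries (140 ± 24.0 against 63.5 ± 18.4 TPM; 1.16, adjusted p = 0.0348). Cd44, the hyaluronan receptor, fell in combination against normal libraries (71.9 ± 17.8 against 151 ± 10.6 TPM; -1.09, adjusted p = 0.0388). Of 43 genes of integrin activation and cytoskeletal linkage 36 were tested. Stk4, the kinase MST1 that acts with RAPL in LFA-1 activation, rose in combination against model libraries (61.9 ± 12.4 against 32.1 ± 9.25 TPM, log2 fold change 0.94, limma adjusted p = 0.0485). In the other comparisons 0 passed. For model against normal 11 of the 36 had an unadjusted p under 0.05, for combination against model 3 and for combination against normal 7. The shares of all gene units were 26.4%, 26.0% and 25.5% in the same order. Fermt3, the kindlin of blood cells, was at 54.4 ± 22.7 TPM in model and 105 ± 4.06 TPM in normal libraries (SD, n = 3 each; -1.003, adjusted p = 0.0640). Vcl, vinculin, was at 3.62 ± 0.53 TPM in combination and 0.810 ± 0.772 TPM in normal libraries (SD, n = 3 each; 1.45, adjusted p = 0.0521). Sipa1, an inhibitor of Rap1, was at 13.9 ± 1.65 TPM in combination and 51.8 ± 3.98 TPM in normal libraries (SD, n = 3 each; -1.83, adjusted p = 0.0542). The medians of this list were -0.08 for model against normal, 0.07 for combination against model and -0.06 for combination against normal.

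The genes whose levels followed Icam1 most closely over the 9 libraries, among 9272 with a symbol, were Uqcc1 (Pearson correlation 0.974), Gbp5 (0.971) and Pdap1 (0.966). For Itgb7 they were Ttll1 (0.990), Adck1 (0.990) and Pa2g4 (0.989). These 9 points fall in 3 groups, and the correlations are descriptions.

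Sums of markers of some other blood cells also moved with the groups, though not every marker in a sum did. Summed TPM of 7 found of 8 monocyte and macrophage markers was 263 to 520 in combination, 54.8 to 156 in model and 22.7 to 131 in normal libraries. Lyz2 led them, at 236 to 453 TPM in combination, 47.0 to 140 TPM in model and 20.5 to 109 TPM in normal libraries, while Cd163 was at 0 in all model and normal libraries and at most 0.039 TPM in combination libraries. All 8 platelet markers summed to 71.3 to 118 TPM in combination, 17.2 to 33.0 TPM in model and 9.40 to 28.8 TPM in normal libraries.

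Of 6 erythroid markers 5 were found, and they summed to 258 to 862 TPM in combination, 2396 to 16144 TPM in model and 58.0 to 1115 TPM in normal libraries. All 6 neutrophil markers summed to 4.98 to 8.42 TPM in combination, 0.583 to 8.70 TPM in model and 14.1 to 33.9 TPM in normal libraries. That sum was mostly S100a8 and S100a9, at 5.13 to 9.99 TPM and 8.37 to 22.3 TPM in normal libraries. Csf3r did not follow it, at 0.656 to 1.62 TPM in combination, 0.081 to 0.247 TPM in model and 0.503 to 1.12 TPM in normal libraries. Mpo, Camp and Ngp were at most 0.556 TPM. The 8 cytotoxic and NK cell markers summed to 77.4 to 104 TPM in combination, 49.3 to 72.8 TPM in model and 100 to 162 TPM in normal libraries. Klrk1 and Klrd1 were highest in normal libraries, at 42.9 to 65.1 TPM and 24.1 to 36.5 TPM. Prf1 overlapped between all groups, at 28.6 to 43.5 TPM in combination, 18.3 to 34.3 TPM in model and 26.0 to 49.5 TPM in normal libraries, and so did Cd8a. B cell markers (5 of 5) lay between 3.00 and 26.9 TPM in all libraries. Endothelial markers (4 of 5) lay between 9.83 and 24.4 TPM, nearly all from Vwf, which megakaryocytes also express, while Cdh5, Kdr and Tek were at most 0.429 TPM. Monocytes, B cells and endothelium also express Icam1, and monocytes express Itgb2. The part of these cells in the results was not tested.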

How the data were processed

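Total RNA libraries of 9 samples were sequenced. Per the submitters' processing notes, bcl2fastq and HISAT2 were used with genome build rn6, without versions. Per the file headers, StringTie 1.3.3b estimated a fixed merged set of 80092 transcripts, and each transcript in the deposited tables carries its coverage, FPKM and TPM as other text attributes, made by the authors' run. Combination libraries were processed under other sample names, and the labels' groups were used. Counts were not used, so no counting interval was derived. TPM was summed per gene name. Where a locus held several names, its assembled transcripts formed a unit of their own. The 14252 gene units with a mean of at least 1 TPM were fitted on log2(TPM + 1), a scale that understates changes of low genes, with limma 3.58.1 in R 4.3.3, 1 coefficient per group over 9 libraries, an intensity trend and Benjamini-Hochberg adjustment over all units at 0.05. The spread had 6 residual and 3.21 prior degrees of freedom.

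All adjusted p-values of genes are from that fit. The fit was tested on simulated data with known changes. The members and lists were chosen with earlier results of these data known. From the lists, genes past the threshold, or else the 2 of the smallest p, were tabulated and a part is printed; the genes most like a member were the 3 of highest correlation. Alternatives were other pseudocounts, filters, FPKM, scalings, gene sums and fits, and omission of each library. Promoters came from RefSeq, build GRCr8; Python 3.11.15 with pandas 2.3.3, numpy 2.4.6, scipy 1.17.1 and matplotlib 3.10.9 did the rest.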

Additional observations from a re-analysis of the deposited data

How the results depend on the processing

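Of the fits of single members under the alternatives, 509 kept direction and side of the threshold, 15 passed newly, 26 lost a call and 11 changed sign. Gene units past the threshold numbered 572 for model against normal, 592 for combination against model and 516 for combination against normal, in that order below. They were 83, 257 and 188 without a filter, 1061, 1306 and 1181 with FPKM, 1235, 1461 and 1403 with median-ratio scaling, 1053, 1425 and 1253 once haemoglobin, ribosomal protein and mitochondrial genes were taken out, and 168, 138 and 88 with reference transcripts only. With only the groups compared they were 71, 28 and 1235, and under a minimum mean of 5 TPM the later comparisons gave 388 and 311. Taking out a library gave 18 to 2664, 39 to 1196 and 23 to 1476. With those genes taken out, combination against model had 939 higher and 486 lower, with a median of 0.13, and with median-ratio scaling 658 and 803, beside 308 and 284.

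Members past the threshold for model against normal were 0 without a filter, with reference transcripts only and with only the groups compared. They were 2 under a minimum mean of 5 TPM, with FPKM, with median-ratio scaling, with locus sums and with those genes taken out, where Icam2 joined Icam1. For combination against normal they were 0 without a filter, 4 with median-ratio scaling (Icam1, Itgb7, Itgb1 and Icam2), 1 with reference transcripts only, and 3 with FPKM, with locus sums and with those genes taken out, Icam2 being the third. Over the omissions of a library they were 0 to 4, 0 to 1 and 0 to 3. Equal replicate numbers did not pair the libraries (residual correlations -0.12 to 0.07, 2 of 9 libraries closest to their own number), and with the replicate block 87, 12 and 21 gene units and 0, 0 and 0 members passed.

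With median-ratio scaling, Itgae and Icam2 changed sign for combination against model, at -0.014 and -0.0052. Over omitted libraries, Itgae ranged from -0.12 to 0.12 and Icam2 from -0.034 to 0.085 in that comparison, and for combination against normal Itgb2 ranged from -0.25 to 0.20 and Itgal from -0.31 to 0.093. Itga4 and Itgae had no value with reference transcripts only, being under the filter. The causes of these shifts were not tested.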
